A study of Mus musculus with 20 samples.

Results

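The 31 genes described here encode the folding machinery of the endoplasmic reticulum (ER) and the unfolded protein response that regulates it. They were taken by symbol from a list that named them, and all 31 were found among the 54532 genes of the count table. RNA sequencing of the mouse hypothalamus had given 20 libraries in 5 groups, all from C57BL/6J males. The Gly-Low diet holds compounds meant to reduce glycation, in which reactive sugar products attach to proteins. In the acute arm the mice were 4 months old and had 1 week of control diet (acute control, n = 5) or of Gly-Low (acute Gly-Low, n = 4). In the ageing arm, young control mice were 3 months old with 1 week of control diet (n = 4). Old control mice (n = 4) and old Gly-Low mice (n = 3) were 25 months old and had 5 months of control diet or of Gly-Low. The labels name no transgene or deletion for any group. Whether each library is a different mouse is not said in the labels, and p-values here measure the spread between libraries, which may be technical.

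Proteins that enter the ER are folded there by BiP (Hspa5) and its DnaJ partners, by the lectin chaperones calnexin (Canx) and calreticulin (Calr), and by disulfide isomerases. Proteins that fail to fold are returned to the cytosol and degraded, a route called ERAD. When unfolded proteins accumulate, the membrane sensors IRE1 (Ern1), ATF6 (Atf6) and PERK (Eif2ak3) activate the transcription factors XBP1, cleaved ATF6 and ATF4. These induce chaperone and ERAD genes and, through ATF4 and CHOP (Ddit3), genes of amino acid supply. The sensors are activated at the protein level and Xbp1 also by splicing of its mRNA, which gene counts do not measure.

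Promoters of chaperone genes are known for the ER stress response element (ERSE), in which CCAAT is bound by NF-Y and CCACG by ATF6 or XBP1. RefSeq promoter windows of GRCm38.p6, from 250 bases before to 50 after each start, were matched for 27 of the 31 genes and were not matched for Atf6, Derl1, Hyou1 and Manf. With both strands searched, CCAAT followed after 9 bases of any kind by CCACG occurred in 8 of the 27, against 0.137% of all 27025 genes with a window. The sites are printed because they show the sequence that these 8 genes share and the spacer in which they differ. Capitals mark the fixed letters of the motif, and each line reads 5′ to 3′ along the strand named.
Hspa5 (chr2:34772020-34772048, plus strand): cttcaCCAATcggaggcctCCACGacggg
Calr (chr8:84847070-84847098, plus strand): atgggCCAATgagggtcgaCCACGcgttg
Canx (chr11:50325795-50325823, minus strand): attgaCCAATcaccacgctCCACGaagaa
Syvn1 (chr19:6046527-6046555, plus strand): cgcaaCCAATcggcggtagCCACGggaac
Hsp90b1 (chr10:86705528-86705556, plus strand): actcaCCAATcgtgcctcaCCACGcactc
Hsp90b1 (chr10:86705633-86705661, minus strand): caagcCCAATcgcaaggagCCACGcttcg
Creld2 (chr15:88819515-88819543, minus strand): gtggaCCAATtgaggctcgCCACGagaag
Dnajc3 (chr14:118937822-118937850, plus strand): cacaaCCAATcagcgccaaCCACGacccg
Pdia6 (chr12:17266486-17266514, plus strand): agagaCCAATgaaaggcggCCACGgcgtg

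A related element, ERSE-II (ATTGG and CCACG with 1 base of any kind between them), occurred in the windows of Herpud1 and Dnajb11, 2 of the 27 genes, against 0.0444% of all genes. The composite element that ATF4 binds with C/EBP proteins (TGATGNAA) occurred in 4 of the 27, against 4.51% of all genes. The core of the XBP1 element, TGACGTGG, was in 0 of the 27 windows and in 0.714% of all genes. The ERSE-II and composite sites are printed because Herpud1 holds both and because Asns, a textbook ATF4 target, holds the composite.
Herpud1, ERSE-II (chr8:94386372-94386392, plus strand): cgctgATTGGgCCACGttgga
Dnajb11, ERSE-II (chr16:22857847-22857867, plus strand): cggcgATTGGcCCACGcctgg
Herpud1, composite (chr8:94386312-94386329, minus strand): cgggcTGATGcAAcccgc
Asns, composite (chr6:7693220-7693237, minus strand): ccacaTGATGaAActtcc
Chac1, composite (chr2:119351044-119351061, minus strand): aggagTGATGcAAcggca
Trib3, composite (chr2:152344034-152344051, plus strand): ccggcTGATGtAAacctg
A match is a description of these letters in this window and not evidence of binding. The sites printed lie in these reference windows, and no binding was measured.

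Total counts ran from 15848372 to 27399753 per library, and the 31 genes together took from 0.275% to 0.536% of them. Levels are given as CPM, the counts of a gene relative to the library total after TMM scaling over all 20 libraries. All 8 hypothalamic markers (Oxt, Avp, Pmch, Hcrt, Agrp, Sim1, Nkx2-1 and Otp) were detected in all 20 libraries. Several measures of the libraries separated the acute groups without overlap. Mitochondrial transcripts took 17.0% to 23.3% of counts in the acute Gly-Low libraries and 5.35% to 9.11% in acute control. The length slope, the slope of a library's log2 CPM deviation on log2 transcript length, was -0.43 to -0.23 in acute Gly-Low and 0.14 to 0.23 in acute control. Erythrocyte markers summed to 556 to 1510 CPM in acute Gly-Low and 72.8 to 323 in acute control. The 7 meningeal markers summed to 90.6 to 216 CPM in acute Gly-Low and 38.1 to 80.6 in acute control, and the 8 hypothalamic markers to 1280 to 2350 and 312 to 1070 in the same order. The hypothalamic markers did not move alike. Oxt, Avp, Pmch and Agrp were higher in acute Gly-Low without overlap, and Hcrt and Sim1 overlapped. Nkx2-1 was lower, at 1.17 to 3.59 against 5.37 to 14 CPM, as was Otp, at 4.93 to 6.05 against 6.28 to 14. The 10 pituitary markers summed to 64600, 32900 and 4250 CPM in acute controls 2, 5 and 3 and to at most 1350 in any other library, while the defining factor Pitx1 was at 0 in 12 libraries. The part of these differences in the results was not tested except where a value without the libraries is given.

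The genes spanned a wide range of levels. Per kilobase of the median annotated transcript, Calr was highest in young control at 228 ± 37.5 CPM (SD, n = 4), followed by Hspa5 at 198 ± 19.0 and Canx at 193. These 3 neighbours did not differ beyond their spread. Hsp90b1 (GRP94, the ER member of the Hsp90 family) stood at 172 and Pdia3 (ERp57, the disulfide isomerase that works with the lectin chaperones) at 154. The sensors were far lower, with Ern1 at 7.49, Atf6 at 5.91 and Eif2ak3 at 5.90 CPM per kilobase. The Ern1 value rests on a median length of 1308.5 bases, where its longest annotated transcript has 6946. Before division by length, Ern1 was the lowest of the 3, at 9.8 CPM against 16 for Eif2ak3 and 42.8 for Atf6. Syvn1 (HRD1, the ubiquitin ligase of ERAD) stood at 2.82 and Trib3, a pseudokinase induced by ATF4 and CHOP, was lowest at 0.30. In acute Gly-Low the order began with Hsp90b1 at 182, then Hspa5 at 142, Canx at 137 and Sec61b at 128, and Calr stood at 70.1.

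**Figure D1:**
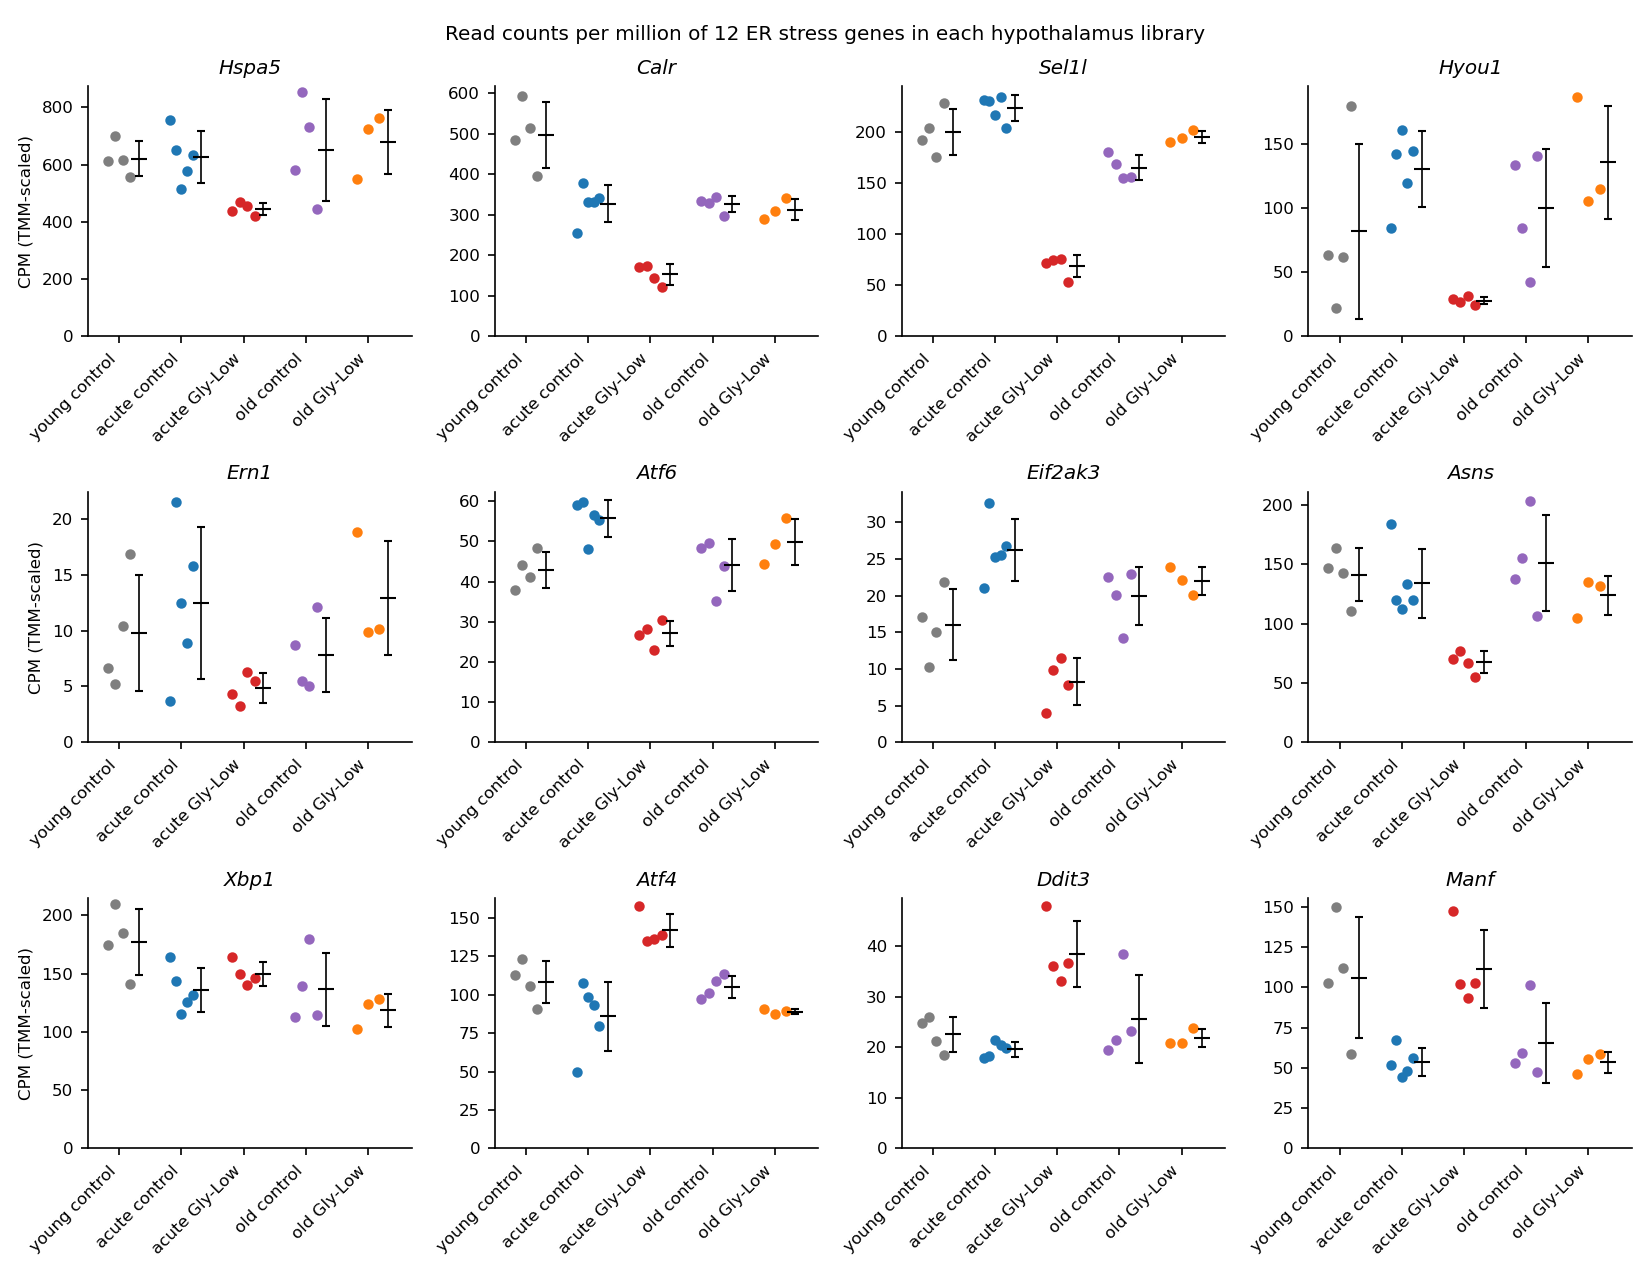
CPM (y axis, linear, 1 panel per gene) of 12 of the genes in the 20 libraries, by group, with black bars for the mean ± SD. The acute Gly-Low points for Calr, Sel1l, Hyou1, Atf6 and Eif2ak3 lie below all acute control points, and those for Atf4, Ddit3 and Manf lie above them.

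After 1 week of Gly-Low at 4 months of age, the ER genes moved in both directions. Lower in acute Gly-Low than in acute control were all 3 members of the lectin chaperone cycle, all 3 stress sensors, BiP with its exchange factor Hyou1, 4 of 6 ERAD genes and the asparagine synthetase gene Asns. Higher were the transcription factors Atf4 and Ddit3, the translocon subunit Sec61b, and Manf, Dnajb9 and Derl2. Of the 30 genes tested, 6 were higher and 14 lower (66.7%) at an adjusted p under 0.05 by edgeR's quasi-likelihood test. Of all 17161 genes tested, 58.3% were called, 27.8% higher and 30.5% lower, so the share among these genes lay near the background of this comparison. In 5 genes every acute Gly-Low library was above every acute control and in 14 below, against 23.0% and 23.9% of all genes. The median log2 fold change was -0.27 over the 30 genes and -0.07 over all genes. Trib3 did not pass the filter on low counts in these 9 libraries, with 0 to 52 reads per library over the series. Leaving out the 3 acute controls with the pituitary sums above (2, 3 and 5) gave 5 genes higher and 12 lower. In that fit 3458 of all 17586 genes tested were called higher and 3719 lower. In bulk tissue, fewer cells of a type and less RNA per cell cannot be told apart.

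BiP (Hspa5, ENSMUSG00000026864, chr2:34771970-34777547) binds unfolded chains and holds the sensors inactive. It was at 757, 650, 515, 579 and 632 CPM in the acute controls and at 437, 470, 455 and 421 CPM in acute Gly-Low. Every acute Gly-Low library was below every acute control, and the log2 fold change was -0.48 ± 0.14 (SE; adjusted p = 0.0099, edgeR). Hyou1 (GRP170, the nucleotide exchange factor of BiP; ENSMUSG00000032115, chr9:44379490-44392369) was at 84.6, 142, 160, 119 and 144 CPM in the acute controls. In acute Gly-Low it was at 28.9, 27.0, 31.1 and 24.4 CPM. Its groups were far apart, with a log2 fold change of -2.21 ± 0.17 (adjusted p = 2.55e-07, edgeR), the lowest value among the 30 genes.

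Other partners of BiP went the opposite way or were not called. Manf, a secreted ER stress protein that binds BiP (ENSMUSG00000032575, chr9:106838312-106891979), was at 51.6, 67.2, 44.5, 48.0 and 56.2 CPM in the acute controls and at 147, 102, 93.1 and 103 CPM in acute Gly-Low. All 4 diet libraries were above all 5 controls, and the log2 fold change was 1.07 ± 0.16 (adjusted p = 5.07e-05, edgeR). Manf averaged 106 ± 37.5 CPM (SD) in young control and 111 ± 24.5 in acute Gly-Low. In the same order, the means of the other genes called higher were 53.2 and 72.2 (Sec61b), 101 and 139 (Dnajb9), 50.4 and 65.4 (Derl2), 108 and 142 (Atf4) and 22.6 and 38.5 (Ddit3). Young control and acute Gly-Low were not tested against each other. The annotated span of Manf overlaps 4 other genes, 3 of them on the other strand. These libraries were not strand-specific, so reads of overlapping genes cannot be told apart. Dnajb9 (ERdj4, a co-chaperone that represses IRE1) was higher by a log2 of 0.63 ± 0.17 (adjusted p = 0.00507, edgeR), although its acute groups overlapped. Without acute controls 2, 3 and 5 the adjusted p for Dnajb9 was 0.124. The co-chaperones Dnajb11 (log2 fold change 0.00) and Dnajc3 (0.16) and the ER proteins Sdf2l1 (0.47) and Creld2 (0.32) were not called. GRP94 (Hsp90b1) was not called either, at 0.03 with a 95% interval of -0.40 to 0.46.

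The lectin chaperone cycle folds glycoproteins, and all 3 of its members listed here were lower. Calr (ENSMUSG00000003814, chr8:84841850-84846934) was at 255, 379, 333, 332 and 341 CPM in the acute controls and at 172, 175, 144 and 121 CPM in acute Gly-Low. The highest diet library stood well below the lowest control, with a log2 fold change of -1.08 ± 0.15 (adjusted p = 3.23e-05, edgeR). Canx averaged 819 ± 150 CPM (SD, n = 5) in acute control and 552 ± 62.0 (n = 4) in acute Gly-Low, a log2 fold change of -0.56 ± 0.16. Pdia3 averaged 432 ± 65.7 and 308 ± 14.1 CPM, a log2 fold change of -0.47 ± 0.14. Of the other disulfide isomerases, Pdia4 was lower by a log2 fold change of -0.38 ± 0.13 (adjusted p = 0.0253, edgeR) and Pdia6 was not called at -0.02. The Pdia4 call was lost without acute control 2 or 5 or acute Gly-Low 3 or 4, with adjusted p-values of 0.0536, 0.0543, 0.0659 and 0.0678 in that order, and it was 0.0719 with the replicate number as a block.

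Of the 6 ERAD genes, 4 were lower. Sel1l, the adaptor of the HRD1 ligase (ENSMUSG00000020964, chr12:91806043-91849157), was at 231, 230, 217, 234 and 203 CPM in the acute controls and at 71.8, 74.9, 75.9 and 53.4 CPM in acute Gly-Low. The controls lay within a narrow band and every diet library was far below it, with a log2 fold change of -1.67 ± 0.13 (adjusted p = 2.77e-07, edgeR). The ligase itself, Syvn1, averaged 12.2 CPM and 4.39 CPM, a log2 fold change of -1.46 ± 0.27. Edem1, a lectin that hands misfolded glycoproteins to ERAD, was lower by -0.62 ± 0.14. Herpud1, a membrane protein of the HRD1 complex, averaged 96.8 ± 7.23 CPM and 66.7 ± 8.05 CPM, with a log2 fold change of -0.52 ± 0.12. The derlins, membrane proteins of the export channel, did not move alike, as Derl1 was not called (-0.22) and Derl2 was higher. Derl2 was at 46.7, 41.4, 38.8, 40.8 and 50.4 CPM in the acute controls and at 64.7, 63.1, 59.8 and 74.1 CPM in acute Gly-Low. Its groups did not overlap, and the log2 fold change was 0.60 ± 0.13 (adjusted p = 0.00094, edgeR). Sec61b, a small subunit of the translocon through which chains enter the ER (ENSMUSG00000053317, chr4:47474658-47483242), was at 21.4, 37.8, 25.0, 19.9 and 22.3 CPM in the acute controls. It was at 106, 71.7, 53.4 and 57.6 CPM in acute Gly-Low, all above the controls, with a log2 fold change of 1.53 ± 0.22 (adjusted p = 3.33e-05, edgeR).

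All 3 sensor transcripts were lower. Atf6 (ENSMUSG00000026663, chr1:170704674-170867771) was at 59.0, 59.7, 48.0, 56.4 and 55.4 CPM in the acute controls and at 26.8, 28.3, 23.0 and 30.5 CPM in acute Gly-Low. No library of one group reached the other, and the log2 fold change was -1.02 ± 0.13 (adjusted p = 1.17e-05, edgeR). Eif2ak3 averaged 26.2 ± 4.20 CPM and 8.27 ± 3.24 CPM without overlap, a log2 fold change of -1.64 ± 0.25. Ern1 was singled out after its values were seen, because it was the only gene called lower whose acute groups overlapped. It was at 3.66, 21.5, 12.5, 8.86 and 15.8 CPM in acute controls 1 to 5, in which the pituitary markers summed to 44.7, 64600, 4250, 612 and 32900 CPM. In acute Gly-Low it was at 4.32, 3.23, 6.28 and 5.49 CPM, so acute control 1 lay among the diet libraries. The log2 fold change of Ern1 was -1.35 ± 0.39 (adjusted p = 0.00774, edgeR), and without acute controls 2, 3 and 5 it was -0.40 (adjusted p = 0.434). With the replicate number as a block it was -1.02 (adjusted p = 0.0601).

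The transcription factors were higher or not called. Atf4 (ENSMUSG00000042406, chr15:80255184-80257541) was at 49.99, 108, 98.9, 93.5 and 79.9 CPM in the acute controls and at 158, 135, 136 and 139 CPM in acute Gly-Low. The diet libraries were all higher, with a log2 fold change of 0.74 ± 0.18 (adjusted p = 0.00221, edgeR). Ddit3, which encodes CHOP (ENSMUSG00000025408, chr10:127290774-127296288), was at 17.8, 18.3, 21.5, 20.5 and 19.9 CPM in the acute controls and at 48.0, 36.0, 33.1 and 36.7 CPM in acute Gly-Low. Its controls varied little and all 4 diet libraries lay above them, with a log2 fold change of 0.99 ± 0.14 (adjusted p = 3.19e-05, edgeR). The span of Ddit3 overlaps Mars and Gm4189 on the other strand, and a second, unused identifier of Ddit3 itself. Among the called genes, Dnajb9, Pdia3, Herpud1, Syvn1, Derl2 and Eif2ak3 also overlap a gene on the other strand. Xbp1 (ENSMUSG00000020484, chr11:5520659-5525893) was at 164, 144, 116, 126 and 132 CPM in the acute controls and at 164, 149, 140 and 146 CPM in acute Gly-Low. These ranges overlapped, and the log2 fold change of 0.15 ± 0.13 was not called (adjusted p = 0.322, edgeR).

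The targets of ATF4 and CHOP in the list were not higher beside Atf4 and Ddit3. Asns, which makes asparagine (ENSMUSG00000029752, chr6:7675169-7693254), was at 184, 120, 112, 133 and 120 CPM in the acute controls. In acute Gly-Low it was at 70.5, 77.1, 66.8 and 55.4 CPM, all below the controls, with a log2 fold change of -0.97 ± 0.17 (adjusted p = 1.57e-04, edgeR). Chac1, which degrades glutathione, was not called at -0.31 (adjusted p = 0.263), nor was Ppp1r15a (GADD34, which lets the eIF2 phosphatase restart translation) at -0.15 (adjusted p = 0.646). Among the 8 genes whose promoter windows hold the ERSE printed above, Hspa5, Calr, Canx and Syvn1 were lower and Hsp90b1, Creld2, Dnajc3 and Pdia6 were not called. Of the 4 genes with the composite element, Herpud1 and Asns were lower, Chac1 was not called and Trib3 was not tested.

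**Figure D2:**
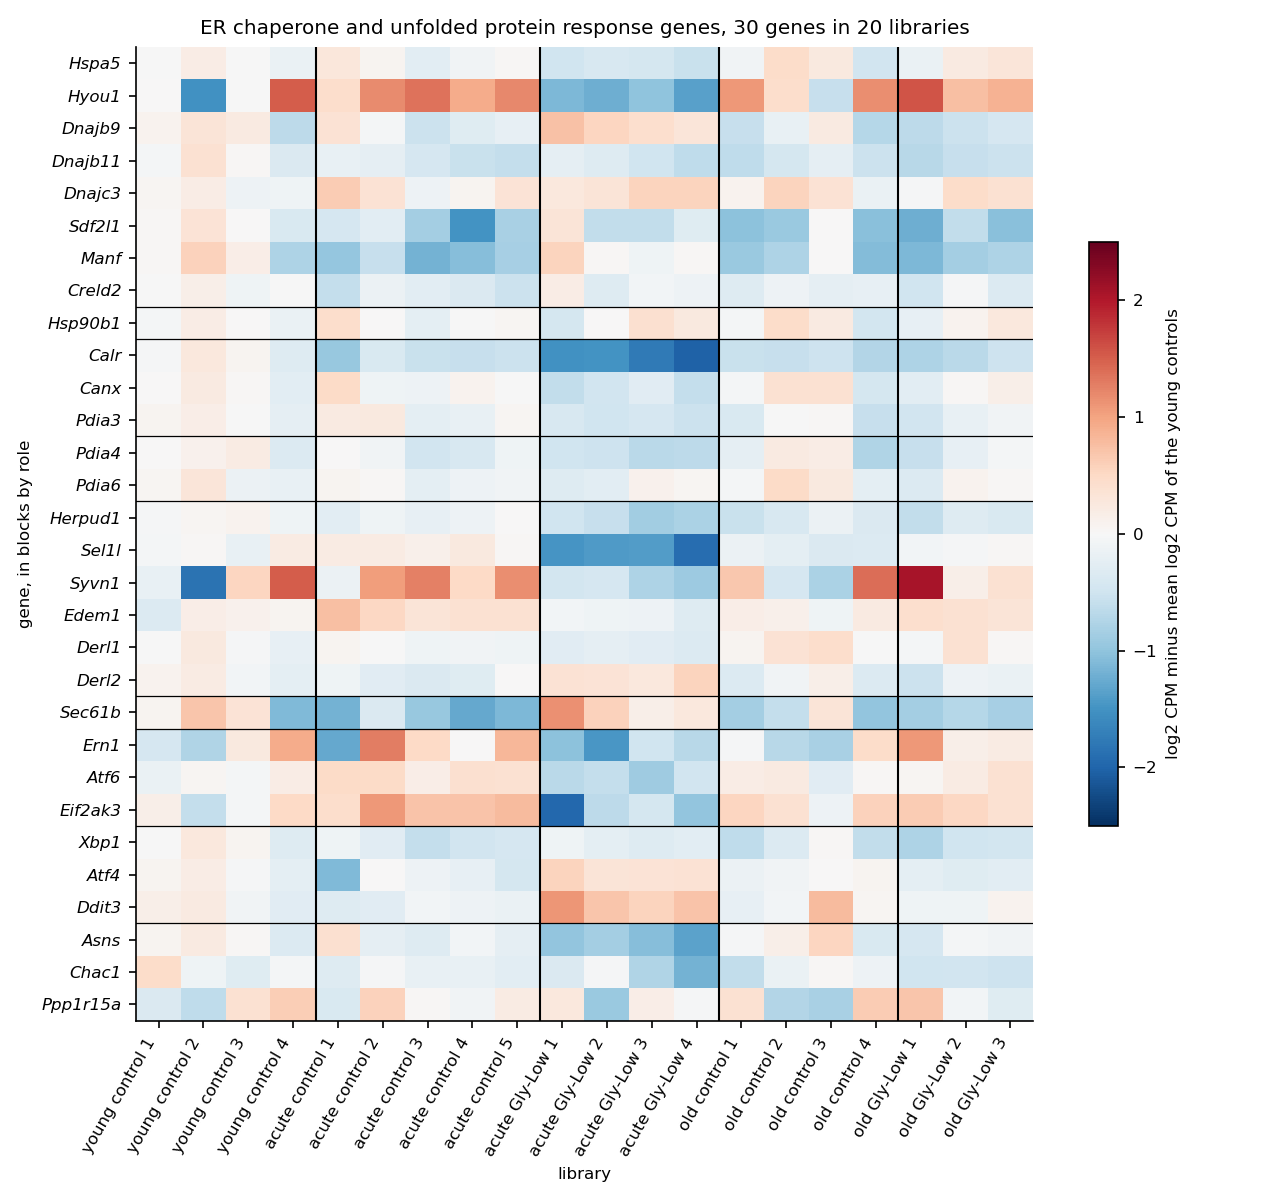
Log2 CPM of 30 genes (rows, by role; Trib3 is left out because it has counts of 0) in the 20 libraries (columns, by group), each minus the mean log2 CPM of the young controls; the colour bar gives the log2 difference. The 4 acute Gly-Low columns show Hyou1, Sel1l, Calr and Eif2ak3 low and Atf4 and Ddit3 high together, a pattern the 3 old Gly-Low columns do not show.

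The direction of the acute differences went with transcript length. The median length of annotated transcripts (GENCODE M21, basic set) was 564 bases for Sec61b and 890 for Ddit3, which were higher, and 4432 for Hyou1, 6150 for Sel1l and 7246 for Atf6, which were lower. Not every gene followed this. Ern1 (1308.5 bases), Herpud1 (1912.5) and Asns (2008.5) were lower, and Dnajc3 (5141) was not called at 0.16. Over the 30 genes, Spearman's rho between length and log2 fold change was -0.60, and over 17152 genes with a length it was -0.56. These genes share libraries and are not independent, so both are descriptions. Of the 5 genes in the longest of 5 length bins, 4 were lower and 0 higher, where 60.8% of all genes in that bin were lower. Since the length slopes of the acute groups did not overlap, diet and length slope cannot be told apart by design in these 9 libraries.

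The acute comparison was therefore also fitted with a length term, in 2 ways. An offset removes each library's trend along transcript length. A covariate gives each gene its own coefficient on the length slope, whatever the gene's length, so it also takes up anything that varies with the slope. With an offset from the trend over 40 length bins, 3 of the genes were higher (Manf, Dnajb9 and Dnajc3) and 10 lower, where 23.9% of all genes were called higher and 23.9% lower. The 10 were Hyou1, Calr, Sel1l, Syvn1, Herpud1, Pdia4, Ern1, Eif2ak3, Asns and Chac1. With the length slope as a covariate over all 5 groups, 0 were higher and 12 lower, where 11.2% of all genes were called higher and 8.76% lower and the median of all genes moved from -0.07 to 0.17. The 12 were Hspa5, Calr, Canx, Pdia3, Pdia4, Herpud1, Sel1l, Derl1, Dnajb11, Atf6, Xbp1 and Asns. Lower in all 3 fits were 5 genes, Calr, Sel1l, Asns, Herpud1 and Pdia4.

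For Calr, the log2 fold change was -1.08 with no length term, -1.12 with the offset and -1.50 with the covariate. The values for Asns in the same order were -0.97, -1.11 and -1.70, and for Sel1l they were -1.67, -0.86 and -1.55. For Herpud1 they were -0.52, -0.68 and -0.87. Those of Hspa5 were -0.48, -0.18 (adjusted p = 0.365 with the offset, edgeR) and -0.93. Calr, Asns, Sel1l and Herpud1 were called lower in all 19 alternative fits of the acute comparison, and no gene called higher kept its call in all of them. Under the offset the values were 0.05 for Sec61b, -0.01 for Ddit3 and 0.43 for Atf4 (adjusted p = 0.0514 for Atf4), and Manf stayed called at 0.67. Under the covariate Manf was at -0.25, Sec61b at -0.21, Ddit3 at 0.24 and Atf4 at 0.46, none of them called. For Hyou1 the value went from -2.21 to -1.66 and 0.07, so its size and direction depended on which length term was used. The annotated transcripts of Ern1 have a median of 1308.5 bases and a longest of 6946, so its offset value of -1.96 rests on the shorter length.

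**Figure D3:**
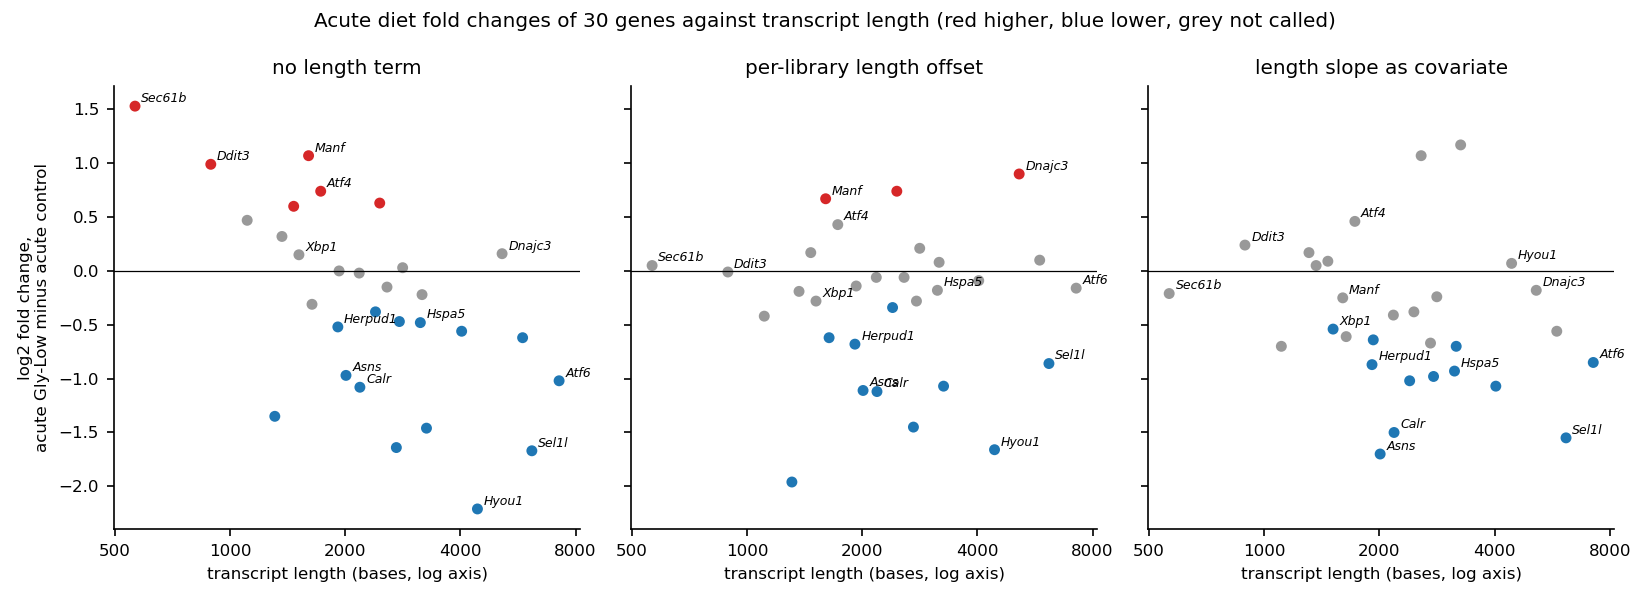
Log2 fold change of the acute diet comparison (y axis) against median transcript length in bases (x axis, log scale) for the 30 genes tested, in 3 panels: no length term, the length offset and the length slope as covariate. In the first panel Sec61b (1.53) is at the short end and Sel1l (-1.67) and Hyou1 (-2.21) at the long end, and Calr and Asns are low in every panel.

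Other genes of the same pathway, from 5 lists of genes outside the 31, also moved in both directions in the acute comparison. Over all genes tested, 27.8% were higher and 30.5% lower in this comparison, with a median log2 fold change of -0.07, and several of the counts below lie near those shares. Of 24 genes of ER protein import and N-glycosylation, 11 were higher and 8 lower, with a median log2 fold change of 0.35. The translocon itself was divided, with the small subunit Sec61g at 2.53 ± 0.21 and the large channel subunit Sec61a1 at -1.30 ± 0.17 (adjusted p = 3.23e-07 and 1.82e-05, edgeR). The median transcript of Sec61g is 754 bases long and that of Sec61a1 is 3172. Of 23 other chaperones and foldases, 6 were higher and 12 lower, with a median of -0.36. The higher ones included Sdf2, a paralog of Sdf2l1, at 1.41 (1268 bases) and Cnpy2 at 1.36 (1073 bases). The lower ones included glucosidase II (Ganab) at -1.45 (3824 bases) and the glycoprotein folding sensor Uggt1 at -1.83 (9033 bases), both enzymes of the lectin chaperone cycle. Of 23 other ERAD components, 5 were higher and 11 lower. The higher ones included Selenok at 1.58 (1678 bases) and Selenos at 1.34 (1157 bases). The lower ones included the lectin Os9 at -1.82 (2542.5 bases) and the extracting ATPase Vcp at -1.02 (3316 bases).

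Of 23 other stress sensors and regulators of eIF2, 5 were higher and 9 lower. Eif2s1, the subunit of eIF2 that PERK phosphorylates, was at 1.17 (3405 bases) and the adaptor Nck1 at 1.05 (2994.5 bases). Both were higher although they lie in the length bin of 2966 to 4220.4 bases. In that bin 13.2% of all genes were higher and 44.2% lower. Eif2ak1, another eIF2 kinase, was at -0.98 (4325 bases) and the stress kinase Map3k5 (ASK1) at -1.75 (4869.5 bases). Of 30 other ATF4 and CHOP targets tested, 7 were higher and 13 lower, with a median of -0.51. Within that list Nupr1, a small stress-induced chromatin protein, was at 3.00 ± 0.22 (829 bases), and the serine synthesis gene Psph at 1.40 (1259 bases). The tRNA synthetase gene Aars was at -1.90 (5750 bases) and the cationic amino acid transporter Slc7a1 at -2.18 (7179 bases).

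No gene of the list was called with age, and Calr came nearest. The old controls had 5 months of control diet and the young controls 1 week, so age and time on that diet cannot be told apart. Comparing old control with young control, 0 of the 31 genes were called by edgeR, where 0.0328% of all 18281 genes were called. At an unadjusted p under 0.05 there were 6 of the 31 and 1663 of all genes, and DESeq2 called 1 of the 31, Calr, and 211 genes higher and 177 lower among all. Calr was at 484, 595, 513 and 396 CPM in young control and at 334, 331, 343 and 297 CPM in old control. Every old library was below every young one, as in 3 of the 31 genes and 2.96% of all genes, and the log2 fold change was -0.63 ± 0.15 (adjusted p = 0.177 by edgeR, 0.00523 by DESeq2). Over the alternatives the adjusted p of Calr ran from 0.00523 to 0.430. Calr was also low in acute control, which at 4 months of age averaged 328 ± 45.2 CPM against 326 ± 20.1 in old control. Dnajb11, a co-chaperone of BiP, was at 58.7, 78.9, 61.9 and 46.9 CPM in young control and at 39.1, 44.9, 51.6 and 41.5 in old control. Its groups overlapped in 1 library of each, and the log2 fold change of -0.49 ± 0.18 was not called (adjusted p = 0.406, edgeR).

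BiP and the transcription factors were not called with age. Hspa5 was at 614, 700, 616 and 555 CPM in young control and at 581, 853, 732 and 444 CPM in old control, so the old libraries spread more widely on both sides, with a log2 fold change of 0.06 ± 0.21. Xbp1 was at 175, 210, 185 and 141 CPM in young control and 113, 139, 180 and 115 CPM in old control, a value of -0.39 ± 0.19 (adjusted p = 0.583, edgeR). Atf4 was at 113, 123, 106 and 91.0 CPM and at 97.0, 101, 109 and 113 CPM, which overlapped widely (-0.07 ± 0.13). Ddit3 was at 24.8, 26.0, 21.2 and 18.5 CPM in young control and at 19.6, 21.4, 38.6 and 23.2 CPM in old control. Old control 3 was the high Ddit3 library, and it also had the lowest length slope of the old groups at -0.20 and the highest mitochondrial share at 15.8%. The 5 other lists of the pathway held 0 called genes by edgeR in this comparison.

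Gly-Low for 5 months in old mice gave no called gene in the list. In old Gly-Low against old control, 0 of 31 genes passed by edgeR, as did 0% of all 18281 genes. DESeq2 also called 0 of the 31, and 2 genes higher and 1 lower among all. At an unadjusted p under 0.05 there were 0 of the 31 and 433 of all genes. The smallest p belonged to Sel1l, at 180, 168, 155 and 156 CPM in old control and 190, 194 and 202 CPM in old Gly-Low. The diet libraries were all above the controls, yet the log2 fold change of 0.27 ± 0.13 did not pass (adjusted p = 0.953, edgeR). Edem1 was at 22.0, 21.4, 18.1 and 22.8 CPM in old control and at 26.3, 25.5 and 24.5 CPM in old Gly-Low, also without overlap, at 0.30 ± 0.17. Of all genes, 3.02% had every old Gly-Low library above every old control, as 2 of these 31 did, and 3.50% had every old Gly-Low library below, as 1 did.

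For BiP and the transcription factors the old groups overlapped except in Atf4. In old Gly-Low Hspa5 was at 551, 725 and 762 CPM, within the range of old control, with a log2 fold change of 0.08 ± 0.23. Xbp1 was at 103, 124 and 129 CPM (-0.19 ± 0.21), and Ddit3 at 20.8, 20.8 and 23.8 CPM (-0.22 ± 0.26), both overlapping old control. Atf4 was at 90.7, 87.4 and 89.3 CPM, below all 4 old controls, with a log2 fold change of -0.21 ± 0.14 (adjusted p = 0.953, edgeR). None of the 4 was called. The age and old diet comparisons share the old controls, and the values of each are given on their own. The 5 other lists of the pathway held 0 called genes by edgeR here too.

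**Figure D4:**
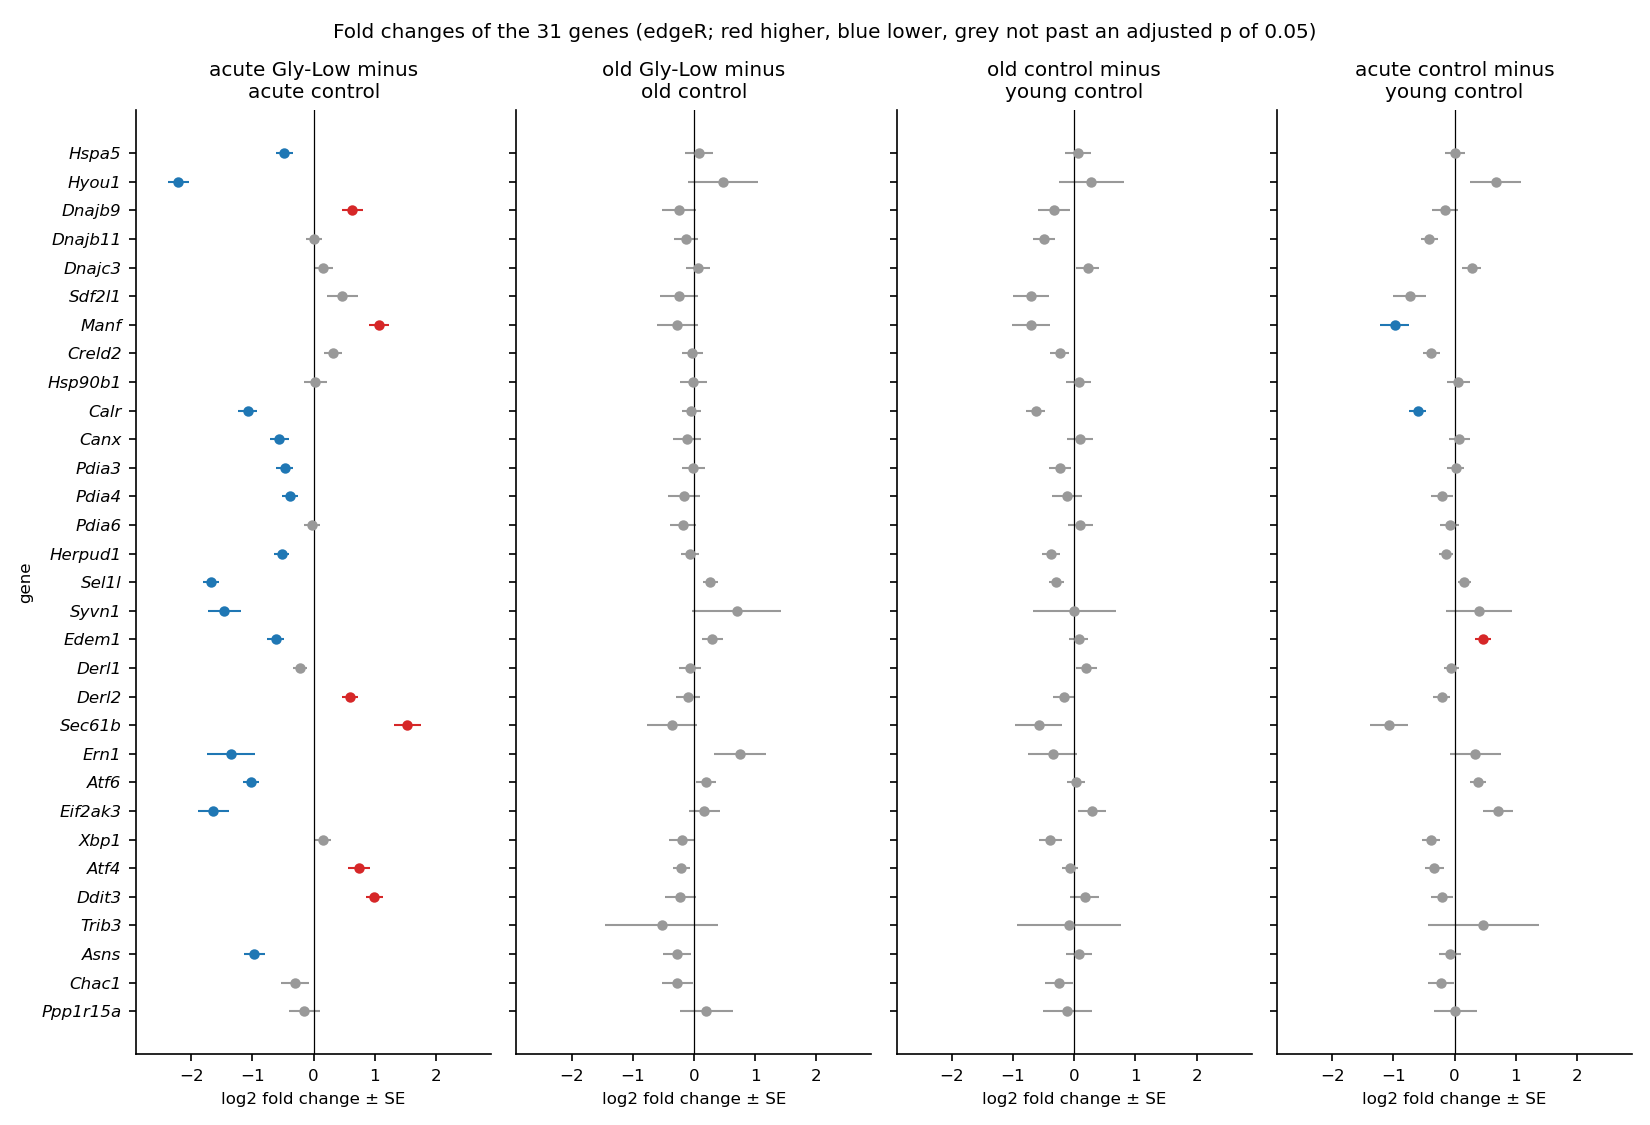
Log2 fold change ± SE (x axis) of each gene (y axis, by role) in 4 comparisons, 1 panel each: acute diet, old diet, age, and acute control against young control. Red points are called higher and blue points lower, grey points are not called; the acute diet panel has 6 red and 14 blue points, and the old diet and age panels have none.

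The 2 young groups on control diet also differed. They were 1 month apart in age and belonged to different arms, which cannot be told apart. In acute control against young control, 1 gene was higher and 2 lower (9.68% of the 31), where 5.29% of all 19061 genes were called, 0.923% higher and 4.37% lower. Calr, with the values given above, was lower without overlap (log2 fold change -0.60 ± 0.14, adjusted p = 0.0228, edgeR). Manf was at 103, 150, 112 and 58.7 CPM in young control and 51.6 to 67.2 CPM in acute control, lower by a log2 fold change of -0.98 ± 0.24 (adjusted p = 0.0259, edgeR). Its ranges overlapped through young control 4. Edem1 was at 15.6, 22.0, 21.1 and 20.5 CPM in young control and 33.2, 28.2, 24.7, 25.4 and 25.5 CPM in acute control, higher by 0.47 ± 0.13 without overlap (adjusted p = 0.0477, edgeR).

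These 3 calls lay near the threshold. Leaving out single libraries often ended them while the log2 fold changes stayed between 0.36 and 0.52 for Edem1, -0.69 and -0.50 for Calr and -1.18 and -0.77 for Manf. The Edem1 call was lost without any one of the 9 libraries other than young control 4, with adjusted p-values from 0.0582 to 0.183. Calr lost it without young control 1, 2 or 3 or acute control 5 (0.0616 to 0.106), and Manf without young control 1, 2 or 3 or acute control 1, 3, 4 or 5 (0.0532 to 0.124). Calls over all genes fell in these fits too, so the losses are not particular to the 3 genes. Without young control 2 or without young control 3, 0 of all genes were called. Without acute control 5, 8 of all 18994 genes were higher and 63 lower, and without young control 1, 11 and 171 of 19004. Without young control 4 the counts rose to 4 higher and 6 lower, adding Hyou1 at 1.41, Atf6, Eif2ak3, Sec61b at -1.33, Xbp1, Dnajb11 and Sdf2l1. Calls over all genes rose as well, from 176 higher and 833 lower of 19061 to 1814 higher and 2143 lower of 18969. Young control 4 had a length slope of 0.22, within the range of the acute controls, and the other 3 young controls had slopes of -0.27 to -0.11. Hyou1 was at 63.4, 21.8, 62.0 and 179 CPM in young controls 1 to 4, whose slopes were -0.11, -0.27, -0.11 and 0.22. Young control 4 was thus the high library for Hyou1 and the low one for Sec61b, at 22.5 CPM against 50.6, 78.1 and 61.4.

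The diet effect in the acute arm was tested against that in the old mice on all 20 libraries. The difference was called for 15 of the 31 genes (48.4%), 6 with a higher and 9 with a lower value in the acute arm, where 36.0% of all genes were called, 19.2% higher and 16.8% lower. The smallest p belonged to Sel1l, with an acute minus old effect of -1.94 ± 0.17 on the log2 scale (adjusted p = 1.47e-06, edgeR). Its diet libraries were at 53.4 to 75.9 CPM in the acute arm and at 190 to 202 CPM in the old mice. Atf6 followed at -1.21 ± 0.19, then Calr at -1.04 ± 0.21 and Eif2ak3 at -1.80 ± 0.38. In the old mice Calr was at 289, 309 and 341 CPM with the diet and 297 to 343 CPM without it. Among the genes with a higher value in the acute arm were Ddit3 at 1.21 ± 0.27, Atf4 at 0.96 ± 0.24, Sec61b at 1.88 ± 0.48 and Manf at 1.34 ± 0.37. Of the 15, Calr alone was called in all 26 alternative fits. The arms differ in age and in the time on the diet, which cannot be told apart.

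Adding a length term changed most of these calls. With the length offset, 1 gene was higher (Dnajb9) and 6 lower, where 13.2% of all genes were called higher and 9.84% lower. The 6 were Hyou1, Calr, Herpud1, Ern1, Eif2ak3 and Asns, and 5 of them were also lower without a length term. With the length slope as covariate 0 were higher and 9 lower, where 4.82% of all genes were called higher and 4.18% lower. Of these 9, Calr, Sel1l, Herpud1 and Atf6 were also lower without a length term, and Hspa5, Canx, Pdia3, Derl1 and Asns were not. For Atf6 the difference was -0.01 with the offset (adjusted p = 0.992, edgeR) and -0.97 with the covariate, and for Sel1l it was -0.82 (adjusted p = 0.0523) and -1.76. For Eif2ak3 it was -1.54 and -0.54 (adjusted p = 0.468 with the covariate), and for Calr -1.11 and -1.56. Ddit3 was at -0.09 and 0.22, Atf4 at 0.57 and 0.62, Sec61b at 0.22 and -0.44 and Manf at 0.82 and -0.40, none of them called in either fit.

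Of the 15 calls with no length term, 4 were lost without single libraries, and 3 of the 4 lay near the threshold, with adjusted p-values of 0.0367 for Dnajb9, 0.0392 for Herpud1 and 0.0485 for Syvn1. Over all single libraries left out, the difference stayed between 0.68 and 1.03 for Dnajb9 and between -0.54 and -0.40 for Herpud1. Dnajb9 was not called without any one of 10 of the 16 libraries of the contrast (adjusted p from 0.0510 to 0.0952), Herpud1 without any one of 9 (0.0555 to 0.0980) and Syvn1 without any one of 12 (0.0546 to 0.273). The highest of these was without old Gly-Low 1, which moved the difference for Syvn1 from -2.14 to -1.25, and in which Syvn1 was at 28.3 CPM against 7.46 and 8.82 in the other old Gly-Low libraries. Without that library Ern1 was not called either (-1.69, adjusted p = 0.0699). Without acute controls 2, 3 and 5 together, 5 genes were higher and 7 lower. In that fit 2678 of all 19627 genes were higher and 1828 lower. Ern1 was then at -1.08 (adjusted p = 0.261, edgeR) and Syvn1 at -1.48 (0.291). Dnajb9 was at 0.73 (0.178) and Herpud1 at -0.38 (0.204), so all 4 lost their calls, and Asns gained one (0.0394). Asns was not called in the full fit (-0.70, adjusted p = 0.0508, edgeR) and was called without acute control 3, acute Gly-Low 2 or old control 3, with adjusted p-values of 0.0446, 0.0488 and 0.0143. Hspa5 was not called (-0.55, adjusted p = 0.0861) and was called without old control 2 (-0.70, adjusted p = 0.0279).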

How the data were processed

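Poly-A RNA of flash-frozen hypothalamus was sequenced as non-directional libraries, per the labels' protocols. The authors deposited raw counts, 1 whole number per gene and library, not normalized. HISAT2 2.0.5, featureCounts 1.5.0-p3, DESeq2 1.20.0 and build GRCm38 are named, per the submitters' processing notes, without their roles; for the annotation release and the strand setting the sources used here give nothing. Of the 54532 genes of the table, 54495 matched GENCODE M21, used for symbols, positions and lengths; 21380 had no count in any library. One of the 2 identifiers for Ddit3 had 0 counts in every library, and the other was used. No 2 libraries held identical values.

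Each comparison was fitted on all genes that passed filterByExpr by group, with TMM scaling and edgeR 4.0.16 (quasi-likelihood F test, R 4.3.3). P-values were adjusted by Benjamini-Hochberg over all genes tested, with a threshold of 0.05 and no minimum fold. The acute diet comparison used its 9 libraries, age and old diet the 11 of the ageing arm, and the other comparisons all 20. Library values are named by group and title number. Standard errors were taken from the F statistic. Counting error is small for most of these genes at 15848372 to 27399753 counts per library. It is larger for Trib3, and for Syvn1, Ern1, Ppp1r15a, Chac1 and Eif2ak3, whose lowest counts were 32, 59, 59, 61 and 65 reads.

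The fits were repeated with DESeq2 1.42.0, with size factors of DESeq2 or upper-quartile factors in place of TMM, without the filter, with CPM of at least 1 in 3 libraries as filter, with other sets of samples, leaving out each library, the title number as a block, a transcript-length offset (40 bins), the length slope as a covariate (log2 CPM with a prior count of 2), and fits without acute controls 2, 3 and 5 or without young control 2 and old control 3. Old control and old Gly-Low libraries that share a title number deviated together (correlations of 0.412 to 0.580 over 3 pairs). However, 0 of 3 correlated best with its own number, so whether the title numbers mark pairs cannot be told. The count table numbers the old Gly-Low columns differently from the titles. For age the correlations ran from -0.161 to 0.724, and 2 of 4 were best with their own number. For the acute diet and young groups comparisons they ran from -0.0619 to 0.0596, with 0 of 4 best in each.

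The members, lists and alternatives were chosen with earlier results of these data known. Values per library are given for Hspa5, Xbp1, Atf4 and Ddit3 and, in each comparison, for up to 4 called genes per direction, by smallest p, or 2 genes where none was called. Values of Ern1, Asns and single libraries outside that rule were chosen after they were seen. From the other pathway lists, up to 2 called genes in each direction are named. Scripts were tested on simulated data.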

Additional observations from a re-analysis of the deposited data

Results flagged for a closer look

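The difference between the diet effects in the 2 arms passed edgeR's quasi-likelihood test for 15 genes, with the log2 difference given as the acute effect minus the old effect. In the folding genes it was -2.66 for Hyou1 (adjusted p = 0.00305), -1.04 for Calr (0.000876), 1.34 for Manf (0.00783) and 0.89 for Dnajb9 (0.0367). In the ERAD and import genes it was -1.94 for Sel1l (1.47e-06), -2.14 for Syvn1 (0.0485), -0.90 for Edem1 (0.0019), -0.46 for Herpud1 (0.0392), 0.70 for Derl2 (0.0129) and 1.88 for Sec61b (0.00531). In the sensors and transcription factors it was -1.21 for Atf6 (0.00014), -1.80 for Eif2ak3 (0.00129), -2.09 for Ern1 (0.0171), 0.96 for Atf4 (0.0048) and 1.21 for Ddit3 (0.00214). Without acute controls 2, 3 and 5 the differences for Ern1, Syvn1, Dnajb9 and Herpud1 were not called (adjusted p from 0.178 to 0.291, edgeR).

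In 3 cases a single library stood apart from the others of its group. Sec61b was at 37.8 CPM in acute control 2 and at 19.9 to 25.0 CPM in the other acute controls. Sdf2l1 was at 20.01 CPM in old control 3 and at 9.68 to 10.4 CPM in the other old controls. Asns was at 184 CPM in acute control 1 and at 112 to 133 CPM in the other acute controls. Of 124 groups of values checked for such a library, 3 were marked, and chance marks about 1 in 20.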

How the results depend on the processing

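In the acute comparison 6 genes were called higher and 14 lower. The higher count was 3 with the length offset and 0 with the length slope as covariate, and every other alternative left 5 or 6; the lower count ran from 10 to 14. Under the covariate the log2 fold change was 0.07 for Hyou1, -0.38 for Dnajb9, -0.25 for Manf, 1.17 for Syvn1, -0.21 for Sec61b, 0.17 for Ern1 and -0.54 for Xbp1, and under the offset 0.10 for Edem1 and -0.01 for Ddit3, all on the other side of 0 from the fit with no length term. For age the count of lower genes, 0, was 1 by DESeq2 and 1 with the covariate, both Calr. Over all genes, DESeq2 called 211 higher and 177 lower of 18281, and the covariate fit 214 higher and 199 lower of 19061. For the young groups, 1 higher and 2 lower became 3 higher and 3 lower by DESeq2, where 491 of all 19061 genes were higher and 1238 lower. The higher count was 0 with DESeq2 size factors, upper-quartile factors, no filter or the offset, and the lower count was 1 with the offset. Both counts were 0 with the covariate and without acute controls 2, 3 and 5, where 0 of all genes were called. They were also 0 without young control 2 and old control 3, where 24 of all 18907 genes were higher and 378 lower. Leaving out single libraries gave 0 to 4 higher and 0 to 6 lower. The 4 and 6 came without young control 4, where 1814 of all 18969 genes were called higher and 2143 lower. Under the replicate block the young groups had 0 higher and 0 lower calls, where 0 of all genes were called. With the block the acute comparison lost Pdia4 (adjusted p = 0.0719, edgeR) and Ern1 (0.0601). Herpud1 lost its call in the difference between arms (0.102), and the age and old diet counts stayed at 0. In that difference the 6 higher calls became 1 with the offset and 0 with the covariate. Its values were 0.18 for Hyou1, -0.45 for Dnajb9, -0.40 for Manf, 1.26 for Syvn1 and -0.44 for Sec61b with the covariate, and 0.02 for Edem1 and -0.09 for Ddit3 with the offset. The cause of these shifts was not tested beyond what each fit changes. Reads were fewest for Trib3, with 0 to 52 per library. They were also low for Syvn1, Ern1, Ppp1r15a, Chac1 and Eif2ak3, whose lowest counts were 32, 59, 59, 61 and 65.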
